A study of Homo sapiens with 8 samples.

Results

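The 7 genes described here are the sterol-sensing regulators of the SREBP2 pathway and well known targets of it. They were chosen by symbol from the deposited gene table (HMGCS1, IDI1, SQLE, INSIG1, SREBF2, SCAP and STARD4), by their role and, for HMGCS1 and IDI1, because the study names their proteins in its HEK293T data. The choice rule sets no limit on the RNA values here, and all 7 were found among its 23459 rows. RNA-seq was performed on Hct116, an established human colorectal carcinoma cell line, in 8 libraries. In 4 libraries the cells had been exposed to 30 μM lenalidomide, a thalidomide analogue that redirects the CRBN ubiquitin ligase to new protein substrates, and in the other 4 to the matching amount of its solvent DMSO, each for 16 h. No genetic change was introduced in either group, and both rest on this single line. According to the study, drug or DMSO was given together with a change to medium with isotope-labelled amino acids. Some replicates of its protein experiment had the labels swapped, and the library titles do not say which. The comparison asks whether RNA levels moved with the drug over the same period in which the study followed protein turnover.

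SREBP2, encoded by SREBF2, is a transcription factor that is made as a precursor bound to the endoplasmic reticulum membrane. SCAP escorts the precursor to the Golgi when sterols are scarce, where proteases release the active fragment, and INSIG1 holds SCAP back when sterols are plentiful. The released fragment binds sterol regulatory elements, often beside CCAAT boxes bound by NF-Y, and switches on genes of cholesterol synthesis and uptake.

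The bases before the start sites are shown first, since these are the stretches through which such regulation acts and they differ between the genes. Each sequence below is the stretch of 250 bases before an annotated start in the RefSeq table for GRCh38.p14, read 5′ to 3′ on the strand of the gene. Capitals mark matches, on either strand, to the sterol regulatory element TCACNCCAC, to the CCAAT box (ATTGG on the other strand) and to the E-box CACGTG.
SREBF2, chr22:41832855-41833104, plus strand: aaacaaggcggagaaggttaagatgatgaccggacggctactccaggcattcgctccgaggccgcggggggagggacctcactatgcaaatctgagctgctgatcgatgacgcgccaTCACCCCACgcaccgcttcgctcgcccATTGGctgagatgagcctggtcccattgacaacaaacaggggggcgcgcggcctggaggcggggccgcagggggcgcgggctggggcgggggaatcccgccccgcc
INSIG1, chr7:155297628-155297877, plus strand: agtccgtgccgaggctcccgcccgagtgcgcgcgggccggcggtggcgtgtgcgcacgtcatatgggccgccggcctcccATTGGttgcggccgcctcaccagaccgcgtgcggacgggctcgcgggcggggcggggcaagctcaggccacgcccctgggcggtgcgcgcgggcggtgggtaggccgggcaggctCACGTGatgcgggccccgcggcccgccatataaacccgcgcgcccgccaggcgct
HMGCS1, chr5:43313413-43313662, minus strand: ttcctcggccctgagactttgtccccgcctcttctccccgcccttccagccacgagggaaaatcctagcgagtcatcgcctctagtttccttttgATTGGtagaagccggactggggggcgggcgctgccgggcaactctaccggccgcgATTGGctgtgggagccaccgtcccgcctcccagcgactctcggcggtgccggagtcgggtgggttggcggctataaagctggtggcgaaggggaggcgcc
STARD4, chr5:111512536-111512785, minus strand: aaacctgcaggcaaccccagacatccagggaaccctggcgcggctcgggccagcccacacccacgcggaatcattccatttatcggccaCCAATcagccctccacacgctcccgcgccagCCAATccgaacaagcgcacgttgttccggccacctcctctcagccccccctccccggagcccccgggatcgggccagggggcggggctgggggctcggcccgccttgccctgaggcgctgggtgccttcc

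SREBF2 carried the sequence TCACCCCAC from 133 to 125 bases before its start and a CCAAT box 106 to 102 bases before it. HMGCS1 held CCAAT boxes at 155 to 151 and at 100 to 96 bases, and STARD4 at 161 to 157 and at 130 to 126 bases. In INSIG1, a CCAAT box 170 to 166 bases before the start was joined by an E-box at 55 to 50 bases. Entries were found for 6 of the 7 genes, without SQLE. The letters of the sterol regulatory element as spelled here occurred in 1 of the 6 genes, against 1.09% of the 27305 genes in the table. Sites with other letters were not searched, so the remaining genes may hold such elements. The CCAAT box occurred in 5 of the 6, all but SCAP, against 37.0% of genes. The E-box was found in 2 (INSIG1 and SCAP; 7.73% of genes), and the GC box GGGCGG, searched on both strands, in all 6 (46.2% of genes). Only the 250 bases before each start were searched, and a gene was counted when this stretch held the letters for any of its starts. The E-box is the only one of these 4 motifs that reads the same on both strands, and CCAAT boxes may overlap, as a pair does in IDI1. Among 22 enzymes of cholesterol synthesis, 17 had an entry, of which 14 held a CCAAT box and 0 the letters of the sterol regulatory element as spelled here.

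Libraries held between 28218471 and 37473413 counts, the 4 lenalidomide libraries being the 4 smallest. No library was a copy of another: over 12 pairs given the same treatment, the chi-square per degree of freedom was 5.82 to 25.5, well above sampling noise. The study calls the replicates biological in one place and technical in another, so that p-values here measure the spread between these libraries, which may be technical. EPCAM averaged 589.7 CPM (counts per 1000000 library counts) with DMSO and 606.0 with lenalidomide, and 6 of 7 epithelial markers were tested. CDX1, the remaining one, had 2 counts in all libraries together. Of 8 markers of blood, stromal and endothelial cells, 6 were too low to be tested, with PTPRC at 23 and CD3E at 2 counts in total. In cell populations such as these, fewer expressing cells and less RNA per cell cannot be told apart.

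The members were well covered, from 953 to 1230 counts per library for SCAP up to 6294 to 10597 for HMGCS1. Levels were compared between genes as CPM per kilobase of exonic width, the mean over 8 libraries with the SD. SQLE, the enzyme that oxidizes squalene and a control point of the pathway, was highest at 62.4 ± 2.61 CPM per kb. INSIG1 followed at 54.1 ± 3.42, HMGCS1, which makes HMG-CoA for the mevalonate pathway, at 46.1 ± 3.70, and IDI1, which interconverts the isoprenoid building blocks, at 45.0 ± 4.39 CPM per kb. STARD4, a soluble carrier that moves cholesterol between membranes, had 23.5 ± 1.89 CPM per kb, close to SREBF2 with 22.8 ± 1.09. SCAP was lowest at 7.47 ± 0.318 CPM per kb. The 4 highest genes lay between the 89.0 and 92.4 percentiles of the 13925 genes tested, and SCAP at the 53.6 percentile.

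Between neighbours in this order, ranges over the 8 libraries separated in 2 of 6 cases, IDI1 over STARD4 with a mean ratio of 1.91 ± 0.113 and SREBF2 over SCAP with 3.05 ± 0.187. SQLE exceeded INSIG1 within each of the 8 libraries, at a ratio of 1.16 ± 0.0647, although their ranges overlapped. INSIG1 likewise exceeded HMGCS1 in 8 of 8 libraries (1.18 ± 0.0613). HMGCS1 and IDI1 could not be ordered, HMGCS1 being higher in 4 of 8 libraries, and STARD4 was above SREBF2 in 6 of 8. SREBF2 and SCAP were thus lower per length than the enzymes SQLE, HMGCS1 and IDI1 in every library. For comparison, INSIG2, the paralogue of INSIG1, had 5.54 ± 0.466 CPM per kb, and SREBF1, the paralogue of SREBF2, 16.7 ± 1.16. Of the proteases that cut SREBP, MBTPS1 had 38.0 ± 0.971 and MBTPS2 4.19 ± 0.943 CPM per kb.

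**Figure D1:**
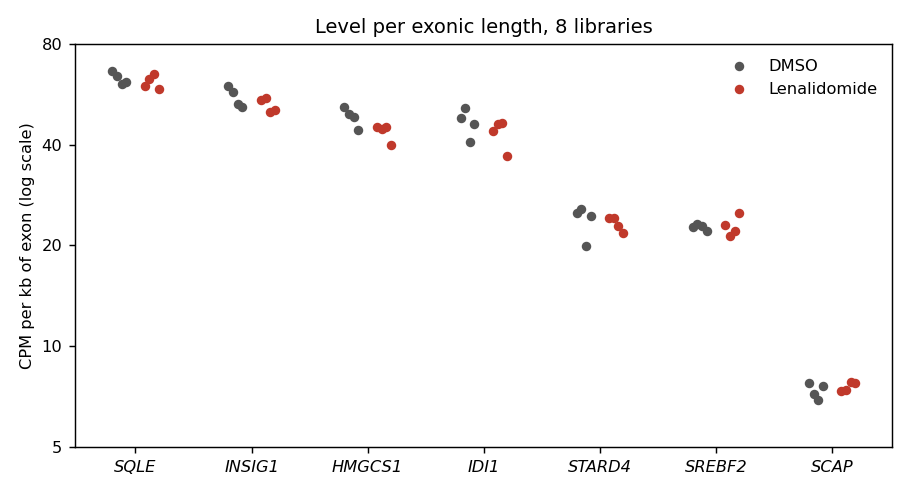
Level of each of the 7 genes in CPM per kilobase of exonic width on a log axis, 1 point per library for the 4 DMSO and the 4 lenalidomide libraries. SQLE lies highest at a mean of 62.4 and SCAP lowest at 7.47, and the gaps without overlap are those between IDI1 and STARD4 and between SREBF2 and SCAP.

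With lenalidomide, 0 of the 7 genes passed an adjusted p of 0.05 in edgeR's quasi-likelihood test, adjusted by the Benjamini-Hochberg method over 13925 genes, where 0.0144% of the genes tested passed (2 genes, LMBRD1 and ZHX1, named after their values were seen). Each of the 7 had an adjusted p of 0.999. DESeq2 and edgeR's likelihood ratio test also called 0 of the 7. At an unadjusted p under 0.05, 1 of the 7 passed (HMGCS1, lower), against 4.18% of all genes in either direction and 0.919% in the lower and 3.26% in the higher direction. Fitted log2 fold changes were below 0 for 5 of the 7, against 48.7% of all genes, with a median of -0.038 for the 7 and 0.0025 for all genes tested. In 0 of the 7 did the libraries of the treatments separate, against 2.08% of all genes. The 95% confidence intervals of the 7 log2 fold changes together spanned -0.28 to 0.16.

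Among the enzymes, HMGCS1 (gene ID 3157; GRCh37 chr5:43287572-43313614, minus strand) had 283.7, 269.7, 263.6 and 240.8 CPM in DMSO replicates 1 to 4. In the lenalidomide libraries it had 246.0, 243.1, 247.2 and 218.2 CPM. Only 1 lenalidomide library, replicate 4, lay below the lowest DMSO library, and the groups overlapped through DMSO replicate 4. The means were 264.4 ± 17.9 and 238.6 ± 13.7 CPM (SD, n = 4), a log2 fold change of -0.15 (SE 0.063, 95% confidence interval -0.28 to -0.013), or -9.75% with an interval from -17.8% to -0.917%. edgeR's quasi-likelihood test gave p = 0.0336 before and p = 0.999 after Benjamini-Hochberg adjustment, and a two-sided exact permutation test of the CPM values gave p = 0.114. The smallest p that 4 libraries against 4 allow is 0.0286. This was the largest difference in size among the 7. It lost its unadjusted call when DMSO replicate 1 (unadjusted p = 0.114), DMSO replicate 2 (unadjusted p = 0.0707) or lenalidomide replicate 4 (unadjusted p = 0.103) was left out of the edgeR fit, each with an adjusted p above 0.05.

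IDI1 (gene ID 3422; GRCh37 chr10:1085092-1095059, minus strand) varied most, with 171.6, 183.5, 145.9 and 164.9 CPM with DMSO. With lenalidomide the values were 157.1, 164.6, 165.8 and 132.5 CPM. DMSO replicate 3 and lenalidomide replicate 4 were the low libraries of their groups, which overlapped widely. The means were 166.5 ± 15.8 and 155.0 ± 15.5 CPM (n = 4 each), a log2 fold change of -0.10 (SE 0.080, interval -0.28 to 0.070; exact permutation p = 0.371). Without DMSO replicate 3 the log2 fold change was -0.16, with an unadjusted edgeR p of 0.0456 and an adjusted p above 0.05. Within a treatment, the coefficient of variation was 9.72% for IDI1, against a median of 7.90% for all genes tested.

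SQLE (gene ID 6713; GRCh37 chr8:126010739-126034525, plus strand) varied least, with a coefficient of variation of 4.25%. Its values were 198.2, 192.2, 181.8 and 184.3 CPM with DMSO and 179.3, 187.6, 194.2 and 175.6 CPM with lenalidomide. The ranges were interleaved, with 2 lenalidomide libraries below the lowest DMSO library. The means of 189.1 ± 7.50 and 184.2 ± 8.35 CPM (n = 4 each) gave a log2 fold change of -0.038 (SE 0.054, interval -0.15 to 0.077; exact permutation p = 0.4).

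Of the sterol-sensing regulators, INSIG1 (gene ID 3638; GRCh37 chr7:155089486-155101945, plus strand) is also a target of SREBP2 itself. It had 184.5, 177.2, 163.2 and 159.2 CPM with DMSO and 167.6, 170.3, 154.0 and 156.5 CPM with lenalidomide. DMSO replicates 1 and 2 were above every lenalidomide library, whereas DMSO replicates 3 and 4 lay within their range. The means were 171.0 ± 11.8 and 162.1 ± 8.07 CPM (n = 4 each), a log2 fold change of -0.078 (SE 0.061, interval -0.21 to 0.052; exact permutation p = 0.286).

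SREBF2 (gene ID 6721; GRCh37 chr22:42229109-42303310, plus strand) had 109.5, 111.5, 110.5 and 106.8 CPM with DMSO. Under lenalidomide it had 111.4, 102.8, 106.4 and 120.7 CPM. The DMSO libraries sat inside the wider lenalidomide range, which reached from replicate 2 at the low end to replicate 4 at the high end. The means of 109.6 ± 2.02 and 110.3 ± 7.77 CPM (n = 4 each) differed by a log2 fold change of 0.0094 (SE 0.056, interval -0.11 to 0.13; exact permutation p = 0.886). This sign turned to -0.036 without lenalidomide replicate 4 and to -0.0028 without DMSO replicate 4.

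SCAP (gene ID 22937; GRCh37 chr3:47455171-47518616, minus strand) had 32.9, 30.7, 29.3 and 32.4 CPM with DMSO and 31.4, 31.4, 33.2 and 33.0 CPM with lenalidomide. No lenalidomide library was below the DMSO range and 2 were above it. The means were 31.4 ± 1.65 and 32.2 ± 1.02 CPM (n = 4 each), a log2 fold change of 0.040 (SE 0.057, interval -0.083 to 0.16; exact permutation p = 0.4).

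The cholesterol carrier STARD4 (gene ID 134429; GRCh37 chr5:110831731-110848288, minus strand) had 77.1, 79.7, 61.8 and 76.0 CPM with DMSO and 74.7, 75.0, 70.9 and 67.3 CPM with lenalidomide. DMSO replicate 3 was the lowest of all 8 libraries, and the other 3 DMSO libraries exceeded every lenalidomide library. The means were 73.7 ± 8.08 and 72.0 ± 3.61 CPM (n = 4 each), a log2 fold change of -0.033 (SE 0.074, interval -0.19 to 0.13; exact permutation p = 0.771). Without DMSO replicate 3 the log2 fold change was -0.11, and without DMSO replicate 2 it was 0.0066.

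**Figure D2:**
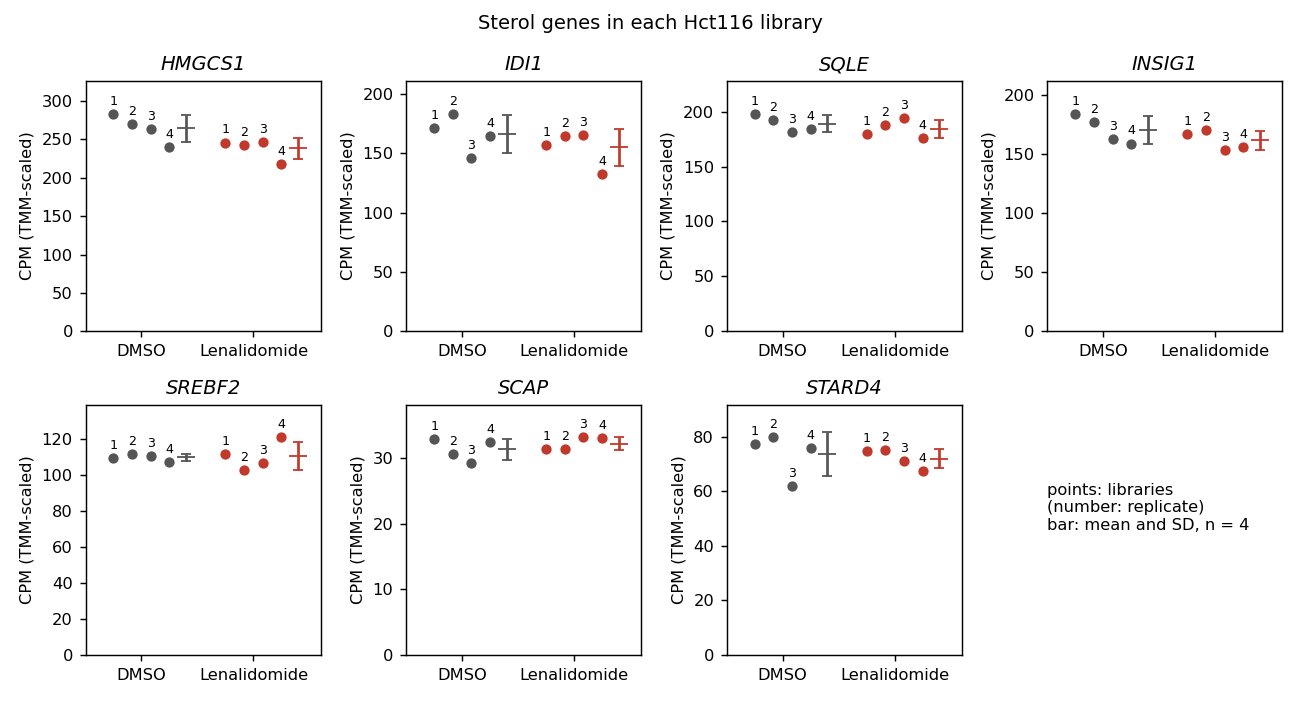
CPM of the 7 genes in each of the 4 DMSO and 4 lenalidomide libraries, each panel with its own axis, with the group mean and SD. In each panel the groups overlap; the lowest HMGCS1 value is lenalidomide replicate 4 at 218.2 CPM, and the lowest STARD4 value is DMSO replicate 3 at 61.8 CPM.

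**Figure D3:**
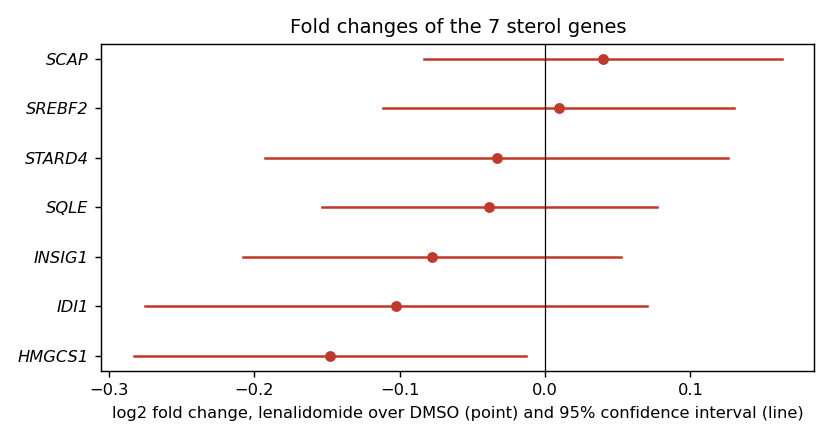
Fitted log2 fold change of lenalidomide against DMSO for the 7 genes, as points with the 95% confidence interval from edgeR's quasi-likelihood fit as lines. The interval of HMGCS1, from -0.28 to -0.013, lies below 0, and those of the other 6 include 0.

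The genes did not rank the libraries alike. DMSO replicates 1 and 2 each had 1 of the 7 genes below its own mean over 8 libraries, while DMSO replicate 3 and lenalidomide replicate 4 had 5. The median log2 deviation of the 7 genes was 0.087 in DMSO replicate 1, 0.091 in DMSO replicate 2 and -0.087 in lenalidomide replicate 4. Deviations of this size exceeded the fitted log2 fold changes of 5 of the 7 genes.

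Across the 8 libraries, 13 of 21 pairs of genes had a Pearson r above 0 on log2(CPM + 1). By exact permutation tests, 4 pairs passed an unadjusted p of 0.05 by Pearson's r and 2 by Spearman's rho, and 0 passed after Benjamini-Hochberg adjustment over the 21. The share of all gene pairs with such a p was not computed. Over the 9093 genes averaging 10 CPM or more, the 95th percentile of r was 0.80 for IDI1 and 0.74 for SQLE. It was 0.77 for STARD4, 0.70 for HMGCS1 and 0.64 for INSIG1, so the pairs below lay near or not far above values common among all genes. IDI1 and SQLE gave r = 0.81 (exact permutation p = 0.0105, adjusted p = 0.186) and rho = 0.88 (p = 0.00724, adjusted p = 0.152). Their r was 0.66 without DMSO replicate 3 and lenalidomide replicate 4 and 0.79 after subtracting the treatment means. IDI1 and STARD4 gave r = 0.80 (exact permutation p = 0.0179, adjusted p = 0.186) and rho = 0.83 (p = 0.0154, adjusted p = 0.161), with 0.68 without the same pair of libraries and 0.82 after centring. Both of these relations kept their sign within treatments, but neither passed the adjustment. HMGCS1 and INSIG1 had r = 0.76 (exact permutation p = 0.0265, adjusted p = 0.186) and rho = 0.62 (p = 0.115, adjusted p = 0.397), with r = 0.50 without DMSO replicate 1 and lenalidomide replicate 4 and 0.70 after centring. HMGCS1 and SQLE had r = 0.73 (exact permutation p = 0.0367, adjusted p = 0.192) and rho = 0.69 (p = 0.0694, adjusted p = 0.364). Their r was 0.72 after centring. It was 0.19 without DMSO replicate 1 and lenalidomide replicate 4, the libraries farthest from the HMGCS1 median, so that its size depended on those libraries. The lowest r, that of IDI1 and SREBF2, was -0.62 (exact permutation p = 0.105, adjusted p = 0.357) and rho = -0.26 (p = 0.536, adjusted p = 0.764), and turned to 0.30 without DMSO replicate 3 and lenalidomide replicate 4.

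**Figure D4:**
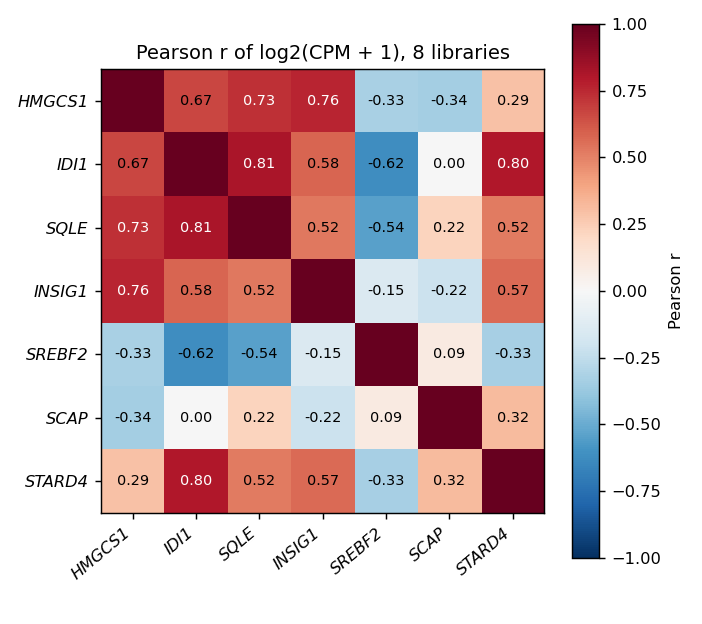
Pearson r of log2(CPM + 1) between each of the 21 pairs of the 7 genes over 8 libraries, on a colour scale from -1 to 1. The highest values are IDI1 with SQLE at 0.81 and IDI1 with STARD4 at 0.80, and the lowest is IDI1 with SREBF2 at -0.62.

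Among the 9093 genes that averaged 10 CPM or more, the profiles most like each member were not those of the other members. For IDI1 they were SLC39A9 (r = 0.99), HAUS2 (0.98) and EIF3M (0.98), with SQLE, its closest fellow member, at rank 406. For SQLE they were UBE2V2 (0.98), TRIT1 (0.95) and PIBF1 (0.94), and IDI1 came at rank 192. HMGCS1 was closest to GDE1 (0.97), MASTL (0.95) and ELL2 (0.93), and INSIG1 to TRAPPC2 (0.98), LGALS8 (0.98) and ZNF76 (0.96). INSIG1 was at rank 243 in the list of HMGCS1, and HMGCS1 at rank 149 in that of INSIG1. SREBF2 was closest to LMLN (0.98), FOXP4 (0.97) and LOC642852 (0.95), SCAP to PIK3CA (0.96), USP46 (0.96) and PPM1A (0.94), and STARD4 to POLE2 (0.97), CDK1 (0.97) and TMEM106B (0.96). With 8 libraries and 9093 genes, high values of r arise among many genes, and these are descriptions only. Among 77 genes of the pathway lists, the closest to SQLE was CYP51A1, a later enzyme of cholesterol synthesis (r = 0.88, rank 44), to STARD4 RAB11A, a GTPase of recycling endosomes (0.93, rank 28), and to IDI1 the ubiquitin ligase gene RNF139 (0.91, rank 79). It was ACAT2 for HMGCS1 (0.78, rank 191), HMGCS1 for INSIG1 (0.76, rank 149), SYVN1 for SREBF2 (0.84, rank 59) and SEC24A for SCAP (0.85, rank 102).

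Of the 22 cholesterol synthesis enzymes, which include HMGCS1, IDI1 and SQLE, 0 passed the adjusted threshold by edgeR's quasi-likelihood test. At an unadjusted p under 0.05, 1 was lower (HMGCS1; 0.919% of all genes tested) and 0 were higher (3.26% of all genes). Fitted log2 fold changes were below 0 for 17 of the 22, against 48.7% of all genes, with a median of -0.032 and a range of -0.15 to 0.12. The median of the list was -0.0053 without lenalidomide replicate 4 and -0.044 without lenalidomide replicate 2. After HMGCS1, the smallest p values belonged to ACAT2, which joins acetyl-CoA units at the head of the pathway, and to IDI1. ACAT2 had 113.1 ± 6.86 and 104.4 ± 12.6 CPM (log2 fold change -0.12).

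Ratios per kilobase within a library, which were chosen after the values were seen and are given without a test, overlapped between the treatments in the 3 pairs that follow (DMSO, then lenalidomide; SD, n = 4). The ratio of INSIG1 to INSIG2 was 9.66 ± 0.760 and 9.99 ± 1.46, SREBF2 to SREBF1 was 1.36 ± 0.0395 and 1.38 ± 0.0859, and SREBF2 to SCAP was 3.09 ± 0.205 and 3.02 ± 0.190.

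Of 21 genes for SREBP processing and sterol-regulated degradation, which include SREBF2, SCAP and INSIG1, 0 passed the adjusted threshold and 1 was higher at an unadjusted p under 0.05, against 3.26% of all genes tested, a share close to 1 of 21. That gene was MBTPS2, the intramembrane protease that makes the final cut in SREBP, with 20.9 ± 2.95 CPM under DMSO and 26.6 ± 6.02 under lenalidomide (log2 fold change 0.35). Its libraries overlapped, from 17.6 to 24.0 and from 20.2 to 32.0 CPM. MARCH6, a ubiquitin ligase that acts on SQLE protein, had a log2 fold change of 0.14. MBTPS1 (-0.00080), SREBF1 (-0.0069) and INSIG2 (-0.11) had intervals that included 0. The list median was -0.0069, with 12 of 21 below 0.

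Of 12 targets in sterol uptake and transport, which include STARD4, 11 were tested and 0 passed the adjusted threshold. NPC1, which exports cholesterol from lysosomes, had the smallest p, with 45.4 ± 2.11 and 51.0 ± 6.23 CPM (log2 fold change 0.17) and an unadjusted p under 0.05, the only 1 of the 11 against 3.26% of all genes in the higher direction. TMEM41B and RAB11A had log2 fold changes of -0.080 and -0.063. The median over the 11 was -0.027. NPC1L1, with 5 counts in total, was not tested.

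**Figure D5:**
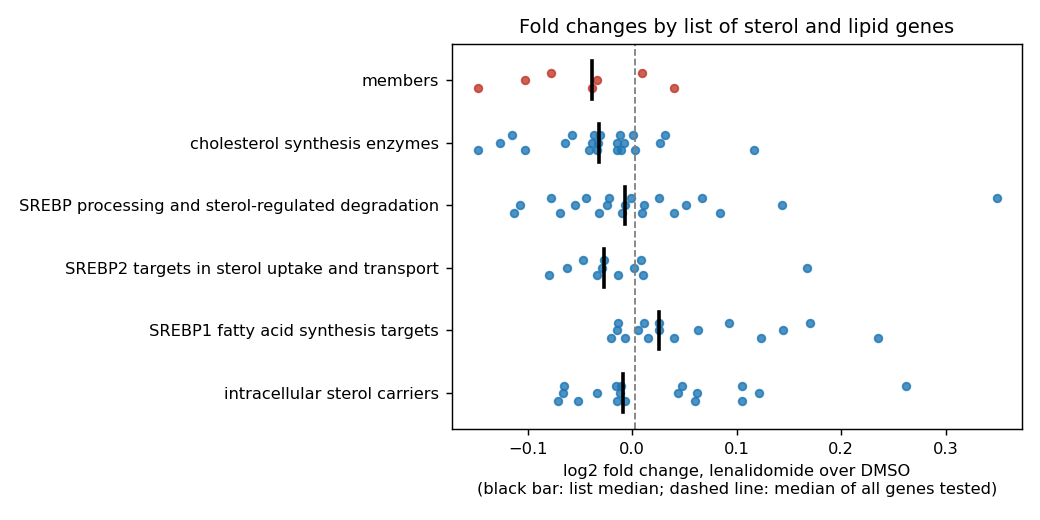
Fitted log2 fold changes of lenalidomide against DMSO, 1 point per gene tested in each list (members, in red, are the 7 genes), with the list median as a bar and the median of all 13925 genes tested as a dashed line. The medians run from -0.038 for the 7 genes to 0.026 for fatty acid synthesis targets of SREBP1, and all genes lie at 0.0025.

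Related and antisense genes with a row of their own held few reads. IDI2, the paralogue of IDI1, had 48 counts over all 8 libraries. In the GRCh37 annotation, exons of HMGCS1, IDI1, SREBF2, SCAP and STARD4 overlap a gene on the opposite strand, and those of SQLE and INSIG1 do not. Since no strand setting was stated, reads of such partners cannot be told apart from those of the genes. IDI2-AS1 had 17 to 31 counts per library and STARD4-AS1 5 to 12.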

How the data were processed

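RNA-seq was performed on 8 libraries of Hct116 cells, 4 per treatment. The authors prepared libraries from total RNA with a ScriptSeq kit, aligned reads to hg19 (GRCh37) with QuasR and deposited, for each gene of the UCSC known gene models, raw read counts, with exonic widths. The sample records name foetal bovine serum and the study's methods dialysed serum for these cultures. The submitters' processing notes name bcl2fastq 2.17; other versions and the strand setting are not given in the sources used here.

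Of 23459 rows, 70 had no symbol (0.0223% of counts) and were kept. Analysis of the deposited counts used edgeR 4.0.16 in R 4.3.3: filterByExpr (minimum count 10, minimum total 15) kept 13925 genes, TMM factors ranged from 0.971 to 1.02, and glmQLFTest with Benjamini-Hochberg adjustment compared lenalidomide with DMSO. CPM, counts scaled to a common library size, include the TMM factor. Totals of 28218471 to 37473413 counts set the counting error, and the standard errors also hold the spread between libraries. DESeq2 1.42.0, the likelihood ratio test, other scalings and filters, a replicate block and leaving out each library were alternatives, as were levels without division by length. Exact permutation tests used scipy 1.17.1. Fits were tested on simulated data.

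The 7 genes and the lists were chosen with earlier results of these data known. Named genes are the 7, the 3 with the smallest p in each list, SREBF1, INSIG2, MBTPS1 and MBTPS2, and the 3 genes most like each of the 7. Markers, related and antisense genes, untested list members, the closest pathway genes and the 2 genes past the threshold are named outside this rule. Some genes that this rule takes in are not reported here. Positions come from GENCODE on GRCh37, and sequences from RefSeq on GRCh38.p14, each used in its own build only.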

Additional observations from a re-analysis of the deposited data

Results flagged for a closer look

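HMGCS1 in lenalidomide replicate 4 stood apart from the other libraries of its group, at 218 CPM where the other 3 lay between 243.1 and 247.2 CPM. The gap was 0.857 of the range of the group, above the critical value of Dixon's test for 4 samples at the 95% level. Of 14 groups examined (7 genes in 2 treatments) this was the only one, and chance alone would mark about 1 in 20 groups. The same library was the lowest of its group for IDI1, SQLE and STARD4 and the highest for SREBF2, and it had the smallest total, 28218471 counts. Without it, HMGCS1 had a log2 fold change of -0.11 (edgeR, unadjusted p = 0.103, adjusted p above 0.05).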

How the results depend on the processing

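Of 105 fitted values of the 7 genes under the alternatives, 102 kept their direction and their side of the threshold and 3 changed sign. STARD4 ranged from -0.11 to 0.0066 on leaving out 1 library (0.0066 without DMSO replicate 2), and SREBF2 from -0.036 to 0.041 (-0.0028 without DMSO replicate 4, -0.036 without lenalidomide replicate 4). No member passed the adjusted threshold under any alternative. Over all genes, 2 passed it, against 9 with DESeq2, 12 with the likelihood ratio test, 4 without the filter and 1 to 2 on leaving out 1 library. The count of members at an unadjusted p under 0.05 ran from 0 to 2: 0 without DMSO replicate 1, DMSO replicate 2 or lenalidomide replicate 4, where 2.56%, 3.08% and 2.19% of all genes passed, and 2 without DMSO replicate 3 (6.03%). Members with separate groups numbered 0 to 1 (STARD4 without DMSO replicate 3, HMGCS1 without DMSO replicate 4). The members' median ran from -0.10 (without DMSO replicate 3) to -0.019. That of the cholesterol synthesis enzymes ran from -0.044 (without lenalidomide replicate 2) to -0.0053 (without lenalidomide replicate 4). Without division by length, 4 of 6 neighbours separated instead of 2 and the order changed: HMGCS1 was highest, above SQLE in 8 of 8 libraries (ratio 1.35), and SREBF2 lay above STARD4 (1.52). With the replicate block, 6 genes passed, and HMGCS1 kept -0.15 (edgeR, unadjusted p = 0.0130, adjusted p = 0.583); no call among the members changed. Deviations of same-numbered libraries correlated at 0.068, 0.0072, -0.014 and 0.33, and 3 of 8 libraries correlated best with their own number, so the numbers were not taken as pairs. The causes of these shifts were not tested.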

Other observations

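SREBP1 and SREBP2 share SCAP and the proteases, and SREBP1 is best known for fatty acid synthesis. Of 16 such genes, 12 had a log2 fold change above 0, against 7144 of all 13925 genes tested, with a median of 0.026, and 0 passed the adjusted threshold by edgeR's quasi-likelihood test. ACACA, which makes malonyl-CoA, ELOVL6, an elongase of fatty acids, and LPIN1, a phosphatidate phosphatase, were higher at an unadjusted p under 0.05, 3 of 16 against 3.26% of all genes. ACACA had 273.2 ± 20.8 CPM with DMSO and 321.5 ± 48.0 with lenalidomide (log2 fold change 0.23), and its ranges overlapped. ELOVL6 and LPIN1 had log2 fold changes of 0.14 and 0.17. Of 20 intracellular sterol carriers, which include STARD4, 18 were tested and 0 passed the adjusted threshold. OSBP, which exchanges cholesterol at membrane contacts, had the smallest p (log2 fold change 0.26). It was the only 1 of the 18 at an unadjusted p under 0.05, against 3.26% of all genes in the higher direction. The list median was -0.0089. OSBPL8 and OSBPL5 had log2 fold changes of 0.12 and 0.11. In both lists, as among the 7 genes, no gene had groups of libraries without overlap, where 2.08% of all genes did.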
